A study of Mus musculus with 4 samples.

Results

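The Rbm genes encode RNA-binding motif proteins, most of which carry the RNA recognition motif, a small fold that grips single-stranded RNA. Members were every protein-coding row of the deposited expression table whose symbol reads Rbm followed by a digit, which gave 39 genes of 53715 in the table. The libraries came from CD4+CD8+ double-positive cells sorted from the thymus of C57BL/6 mice of 6 to 8 weeks, with 2 WT and 2 KO libraries. The KO genotype is given as LCKCre/+ Srsf1fl/fl, that is, both copies of Srsf1 are floxed and Cre is expressed from the Lck promoter, which switches on in early thymocytes. The controls are given only as WT, and whether they carried Cre or floxed alleles is not stated in the sources used here. Nothing says that equal replicate numbers share an animal or that replicates are separate animals, so p-values measure the spread between these libraries, which may be technical.

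Srsf1 encodes an SR protein, which binds exons and helps to choose splice sites. Several Rbm proteins act in the same process: some sit in the spliceosome, some shift the choice of alternative exons, and others work on mRNA after splicing, in the exon junction complex, in m6A methylation, in nuclear RNA decay or in the stability and translation of the message. Another set helps to make ribosomes. Many genes of splicing factors carry exons or retained introns that send their own transcript to nonsense-mediated decay, a known route by which such genes are controlled.

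Each library held 35862730 to 37033180 counts, so that 1 count was worth 0.0270 to 0.0279 counts-per-million (CPM). Srsf1 itself had 4821 and 4485 counts in WT and 1839 and 1772 in KO, a log2 fold change of -1.39 (SE 0.09, edgeR adjusted p = 2.91e-06), which left 0.383 of the WT level. Of the double-positive markers Cd4, Cd8a, Cd8b1, Rag1, Rag2, Dntt, Ptcra and Cd3e, all except Cd4 and Cd3e were called higher, and Cd8a and Ptcra each lost the call without some single libraries (edgeR adjusted p up to 0.219 and 0.283). Cd4 had 45069 and 44181 counts in WT and 51070 and 50499 in KO, and Rag1 had 75034 and 71791 in WT and 141964 and 132458 in KO. Of the markers of mature single-positive T cells, Ccr7 had 1401 and 1605 counts in WT and 384 and 426 in KO, and Ccr7, S1pr1 and Klf2 were called lower while Il7r was not called. The lists of B cell, myeloid, thymic epithelial and erythroid markers each summed to at most 22.2 CPM in any library, with Krt5 and Foxn1 of epithelium at 0 counts in every library. B cell markers summed to 10.1 to 12.2 CPM in WT and at least 18.8 CPM in both KO libraries, with Cd79b called higher (not without WT replicate 2, edgeR adjusted p = 0.0976, or KO replicate 2, 0.0744). The part of these shifts in the results on Rbm genes was not tested, and in bulk samples fewer cells of a type and less RNA per cell cannot be told apart.

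The 250 bases before the start of 4 members are shown because the results turn on these genes: Rbm24 had the largest fold change of any called member, Rbm39 was the most abundant member and fell, and the neighbours Rbm5 and Rbm6 rose together. The sequences are RefSeq promoters on GRCm38.p6, 5′ to 3′ on the strand of the gene, and capitals mark a CCAAT box on either strand. They are Rbm24 (chr13:46418050-46418299, plus strand), the upstream of 2 entries for Rbm39 (chr2:156180239-156180488, minus strand), Rbm5 (chr9:107771003-107771252, minus strand) and Rbm6 (chr9:107872820-107873069, minus strand).
Rbm24: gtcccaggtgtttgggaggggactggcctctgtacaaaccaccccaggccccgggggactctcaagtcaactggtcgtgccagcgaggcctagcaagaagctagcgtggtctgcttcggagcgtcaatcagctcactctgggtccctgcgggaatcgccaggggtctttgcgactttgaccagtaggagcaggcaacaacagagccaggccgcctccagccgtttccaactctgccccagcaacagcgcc
Rbm39: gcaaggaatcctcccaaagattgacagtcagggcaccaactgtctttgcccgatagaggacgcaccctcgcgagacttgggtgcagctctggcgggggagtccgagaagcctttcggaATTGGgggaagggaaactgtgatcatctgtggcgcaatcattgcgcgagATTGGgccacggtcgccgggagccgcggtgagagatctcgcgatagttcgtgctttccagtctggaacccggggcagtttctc
Rbm5: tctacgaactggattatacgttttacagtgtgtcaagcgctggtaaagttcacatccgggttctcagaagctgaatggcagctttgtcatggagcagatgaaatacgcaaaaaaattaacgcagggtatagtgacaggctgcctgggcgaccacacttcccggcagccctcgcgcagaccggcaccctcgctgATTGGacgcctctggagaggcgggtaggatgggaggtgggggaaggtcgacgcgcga
Rbm6: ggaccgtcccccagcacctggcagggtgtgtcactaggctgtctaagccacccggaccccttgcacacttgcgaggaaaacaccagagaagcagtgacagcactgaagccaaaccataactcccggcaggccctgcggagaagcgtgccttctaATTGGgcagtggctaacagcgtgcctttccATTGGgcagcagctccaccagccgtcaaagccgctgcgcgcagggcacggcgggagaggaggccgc

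Rbm5 held a CCAAT box 57 bases before its start, Rbm6 held 2, at 96 and 66 bases, and Rbm39 held 2, at 132 and 83 bases. Of the 39 members, 30 had a RefSeq promoter, in 35 entries of 300 bases (250 before the start and 50 after), and 8 motifs were searched on both strands. CCAAT was in 14 of the 35 entries (40.0%) against 37.4% of all 32851 promoters of that length and 37.6% of 12025 promoters of tested protein-coding genes. The GC box GGGCGG was in 15 entries (42.9%), a share above that of all promoters (35.7%) and below that of tested protein-coding genes (61.9%). TATAAA was in 6 entries (17.1%), against 13.6% of all promoters and 6.85% of those of tested protein-coding genes. The entries of Rbm4 are overlapping windows, so the same TATAAA and the same CCAAT boxes were counted in each. Rbm31y, another of the 6, was not tested. The Ets motif CCGGAAGT was in 1 entry, that of Rbm19, and the AP-1 motif TGANTCA in 1, that of Rbm38, against 3.89% and 7.81% of all promoters and 7.89% and 4.95% of those of tested protein-coding genes. The cAMP response element TGACGTCA, the Nr4a motif AAAGGTCA and the NRF1 motif were in none of the 35 entries and in 1.79%, 1.51% and 0.971% of all promoters (3.11%, 1.03% and 2.08% for tested protein-coding genes). The Rbm24 window held none of the 8 motifs. The median Rbm promoter had 59.7% G and C and 21 CpG sites, beside 60.7% and 20 over the promoters of tested protein-coding genes. A match or its absence describes only the letters in these windows.

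Of the 39 members, 35 passed the filter on low counts and were tested, and 31 had a mean of at least 1 RPKM (counts scaled by gene length and library total). Rbm46 and Rbm31y had 0 counts in every library, which allows up to 0.0810 to 0.0837 CPM (3 counts, for counting error only). Rbm11 had 12 counts in WT replicate 1 and 0 in the other libraries, and Rbm20, a splicing repressor of heart and skeletal muscle, had 1, 7, 2 and 25 counts in WT replicates 1 and 2 and KO replicates 1 and 2. Neither Rbm11 nor Rbm20 was tested.

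Per length, Rbm39 was the most abundant member in both groups. It had 212 and 222 RPKM in WT and 171 and 165 RPKM in KO, and it alone made up 25.5% ± 0.521 (SD, n = 2) of the summed RPKM of all Rbm genes in WT and 20.9% ± 0.495 in KO. Rbm38 followed with 105 and 106 RPKM in WT and 90.5 and 107 RPKM in KO, then Rbm17 with 70.6 and 73.6 against 69.8 and 70.1 RPKM, and Rbm3 with 63.1 and 63.3 against 62.2 and 62.2 RPKM. These 4 held the same order in WT and in KO, and no library of one overlapped a library of the next. The fifth place by mean RPKM belonged to Rbm10 at 29.4, 30.8, 36.0 and 39.3 RPKM, a range that overlapped that of Rbm15b at 34.0, 37.6, 31.7 and 31.3 RPKM. The lowest of the 31 was Rbm4 at 1.69 to 2.01 RPKM, as the plot of levels per length shows. Rbm24 moved furthest in that order, from rank 15 of 39 in WT to rank 30 in KO, and Rbm28 went from rank 13 to rank 8. The summed RPKM of all members was 843 and 859 in WT and 807 and 802 in KO, whereas without Rbm39 it was 631 and 636 in WT and 636 and 638 in KO. In RPKM the groups thus did not overlap with Rbm39 included, and did without it. In CPM, which is not scaled by length, the sum without Rbm39 was 3314 and 3346 in WT and 3516 and 3477 in KO, with both KO libraries above both WT libraries.

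**Figure D1:**
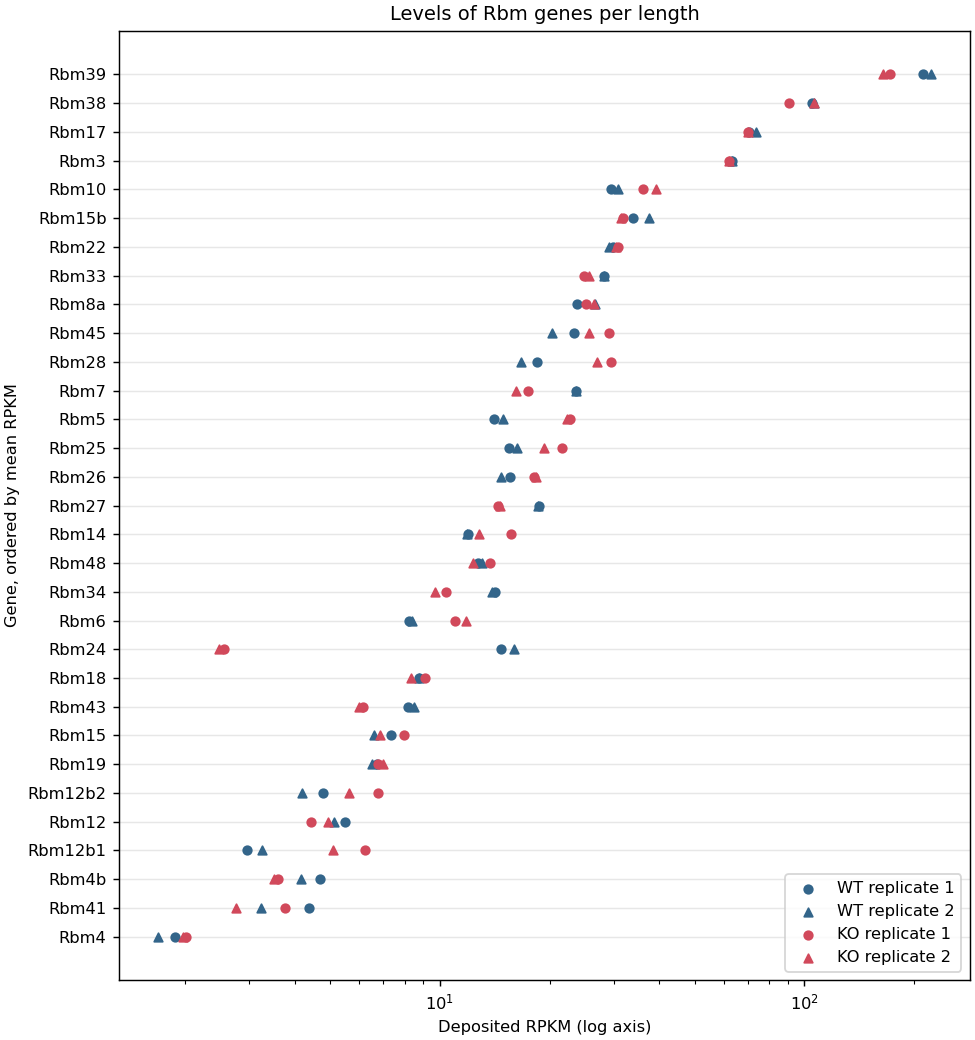
Deposited RPKM (log axis) of the 31 Rbm genes with a mean of at least 1 RPKM, 1 point per library, ordered by the mean over the 4 libraries. Rbm39 sits highest at 165 to 222 RPKM, and the KO points of Rbm24 lie at 2.48 and 2.56 RPKM, far to the left of its WT points at 14.8 and 16.0 RPKM.

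In KO against WT, 7 Rbm genes rose and 5 fell, and 23 of the 35 tested were not called (edgeR quasi-likelihood test, Benjamini-Hochberg adjusted p under 0.05 over all 16588 genes tested). Over all tested genes 14.5% were called, 6.63% higher and 7.89% lower. Over protein-coding genes alone the shares were 18.1%, 8.22% and 9.83%. Among the members tested 34.3% were called. Members were more abundant than the typical tested gene, with a median of 53.4 CPM against 10.8 CPM, and where the mean reached 10 CPM the shares were 12 of 30 members and 25.3% of all 8427 genes. The genes that rose were Rbm5, Rbm6, Rbm10, Rbm12b1, Rbm25, Rbm26 and Rbm28, and those that fell were Rbm7, Rbm24, Rbm27, Rbm34 and Rbm39. Their median absolute log2 fold change was 0.47, beside 0.55 over all called genes, and the median log2 fold change of all tested members was 0.04 against 0.00 over all tested genes. The 2 groups were fully separated in 27 of 35 members, 15 higher and 12 lower in KO, against 55.9% of all tested genes and 60% of tested protein-coding genes.

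**Figure D2:**
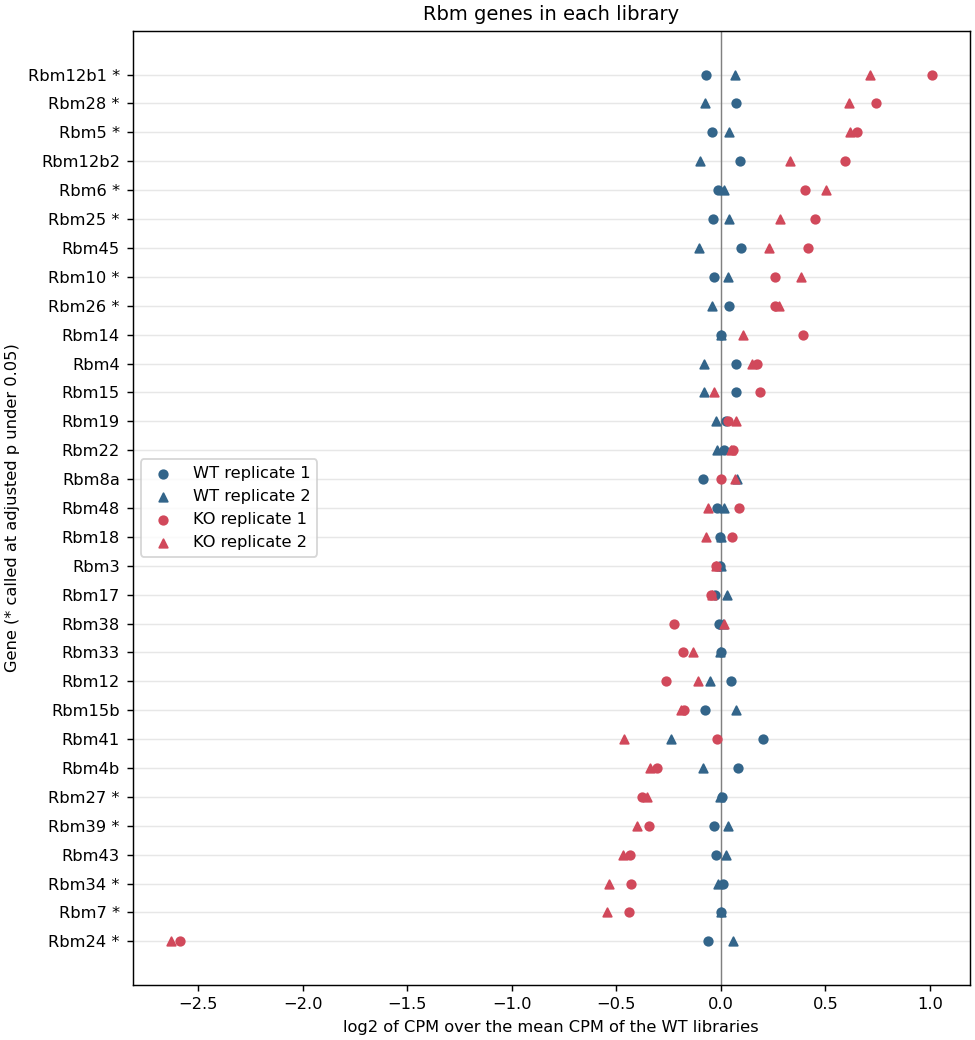
Log2 of each library's CPM over the mean WT CPM, for the 31 Rbm genes with a mean of at least 1 RPKM, ordered by fold change, with an asterisk on called genes. Most members lie within 0.5 log2 units of WT, and Rbm24 stands apart at the bottom, where both KO libraries lie more than 2.5 log2 units below the WT mean.

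**Figure D3:**
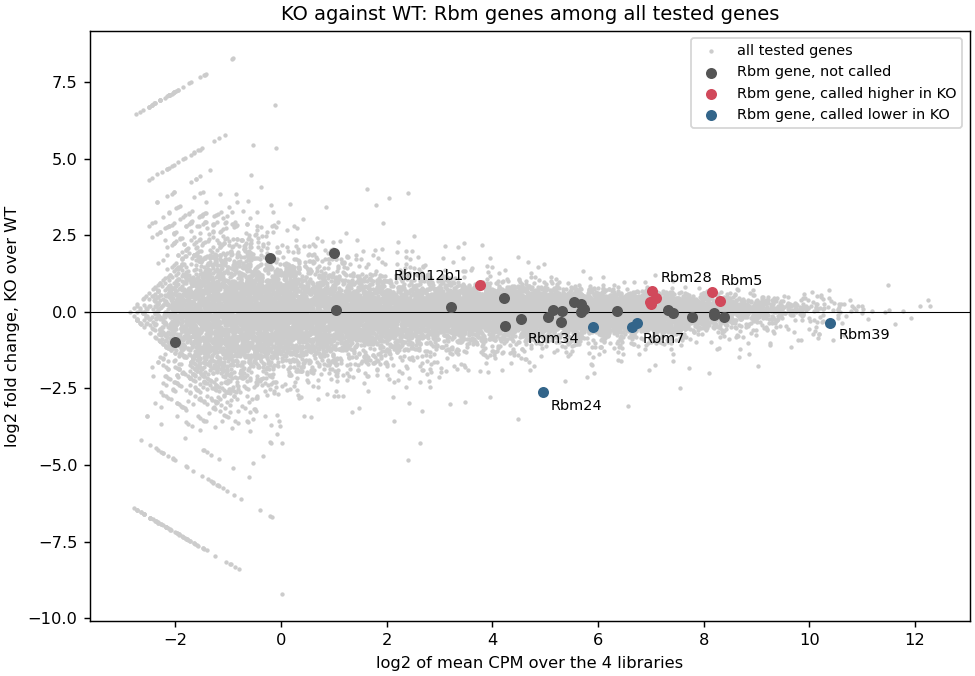
Log2 fold change of KO over WT against log2 of the mean CPM for all 16588 tested genes (grey), with the 35 tested Rbm genes drawn over them. The 7 members called higher and the 5 called lower lie on both sides of 0, with Rbm39 at the far right as the most abundant and Rbm24 lowest at -2.61.

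The members that act in the spliceosome or in splice site choice numbered 14, of which 12 were tested, 4 rose, 1 fell and 7 were not called. Rbm5, Rbm6 and Rbm10 are related proteins, and Rbm5 and Rbm10 are known regulators of alternative exons in apoptosis and growth genes. Rbm5 (ENSMUSG00000032580.12, chromosome 9, 107740371 to 107770996, minus strand) had 7797 and 8395 counts in WT and 13018 and 12502 in KO. Its level rose from 224 ± 8.83 to 348 ± 5.63 CPM (mean ± SD, n = 2 libraries per group), a log2 fold change of 0.64 (SE 0.07, edgeR adjusted p = 0.000141). Rbm6 (chromosome 9, 107773559 to 107873237, minus strand) lies 2562 bases upstream of it on the same strand and had 4114 and 4282 counts in WT and 5673 and 5976 in KO (log2 fold change 0.45, SE 0.08, edgeR adjusted p = 0.00303). Both KO libraries lay above both WT libraries for each of these genes. Rbm10, on chromosome X, had 3920 and 4181 counts in WT and 4957 and 5307 in KO (0.32, SE 0.09, edgeR adjusted p = 0.0239). All 3 members of this trio thus rose, Rbm5 by 55.6%, Rbm6 by 37.0% and Rbm10 by 25.2%. The Rbm10 call was lost without WT replicate 1 (edgeR adjusted p = 0.115) or KO replicate 2 (0.0744). Rbm10 shares 3.15% of its exon bases with Ndufb11 on the other strand, a gene with 3061, 2916, 3624 and 3520 counts that was not called (log2 fold change 0.24, adjusted p = 0.104).

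Rbm25 and Rbm39, both SR-like proteins that act with core splicing factors, moved apart. Rbm25, which acts with the U1 snRNP on 5′ splice sites, had 9619 and 10322 counts in WT and 13920 and 12193 in KO, a rise from 275 ± 10.2 to 355 ± 28.9 CPM (log2 fold change 0.37, SE 0.08, edgeR adjusted p = 0.00695). Rbm39, which resembles the splicing factor U2AF and also serves as a coactivator of transcription, had 52840 and 56388 counts in WT and 44069 and 41617 in KO. The KO mean was 1167 ± 32.8 CPM against 1509 ± 50.1 CPM in WT, so Rbm39 fell (-0.37 on the log2 scale, SE 0.06, edgeR adjusted p = 0.00143). The ratio of Rbm39 to Rbm25 in RPKM was 13.7 and 13.7 in WT and 7.92 and 8.54 in KO. Rbm39 (chromosome 2, 156147239 to 156180238, minus strand) has no annotated gene that overlaps it, and Rbm25 shares 0.955% of its exon bases with an antisense gene.

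The core spliceosome members did not pass the test. Rbm17 (SPF45), which takes part in the recognition of the 3′ splice site, had 6088 and 6461 counts in WT and 6221 and 6132 in KO (log2 fold change -0.04, SE 0.08, edgeR adjusted p = 0.813). Rbm22, a component of the catalytic spliceosome, had a log2 fold change of 0.06 (SE 0.08), and Rbm48 and Rbm41, which belong to the minor spliceosome or resemble its proteins, had 0.02 (SE 0.13) and -0.22 (SE 0.21). Rbm4b had 1662 and 1506 counts in WT and 1313 and 1258 in KO (-0.32, SE 0.13, adjusted p = 0.133). Rbm4 and Rbm42 are uncertain, since they share 60.5% and 75.4% of their exon bases with the annotated genes Gm21992 and Gm21982 on the same strand. Rbm42 had 22 and 6 counts in WT and 71 and 28 in KO, and Gm21982 had 0 counts in every library. The sources used here do not give how reads within such overlaps were assigned, so the low level listed for Rbm42 may not measure its mRNA.

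Of the 6 members that act in the stability and translation of mRNA, 5 were tested, 1 fell and 4 were not called. Rbm24, known for its role in splicing and mRNA stability in heart and skeletal muscle, fell the most of any called Rbm gene. Rbm24 (ENSMUSG00000038132.6, chromosome 13, 46418434 to 46431095, plus strand) had 1847 and 2039 counts in WT and 331 and 315 in KO, without overlap. Its level fell from 53.7 ± 3.07 to 8.80 ± 0.199 CPM, that is 6.09-fold (log2 fold change -2.61, SE 0.15, edgeR adjusted p = 1.03e-06). Muscle markers were near 0 beside it: Myh6, Actc1, Ttn, Des, Ckm, Myog and Acta1 together summed to 2.36 to 3.57 CPM in WT and 3.19 to 4.15 CPM in KO, Actc1 had 0 counts in every library, and none of the 3 tested was called. Those 3 did not move together: Acta1 had 80 and 46 counts in WT and 19 and 18 in KO. Ttn went the other way, with 48 and 34 counts in WT and 76 and 111 in KO. Ckm also went up, from 0 and 6 counts in WT to 20 and 10 in KO. No annotated gene overlaps Rbm24.

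Rbm38, the closest relative of Rbm24 and a p53 target that binds U-rich and GU-rich messages, was not called. It had 10787 and 11125 counts in WT and 9611 and 11125 in KO, so that the groups overlapped (log2 fold change -0.10, SE 0.09, edgeR adjusted p = 0.551). The ratio of Rbm24 to Rbm38 in RPKM was 0.141 and 0.151 in WT and 0.0283 and 0.0233 in KO. In WT, Rbm38 thus already made up most of the summed RPKM of this pair. Rbm3, a cold-inducible protein that favours translation, had 10632 and 10851 counts in WT and 10820 and 10641 in KO (-0.02, SE 0.07, edgeR adjusted p = 0.913). Its relative Cirbp, the other well-known cold-inducible RNA-binding protein, lies outside the name rule and fell, from 4902 and 5057 counts in WT to 3584 and 3200 in KO (-0.57, SE 0.08, edgeR adjusted p = 0.000795). Rbm45 had 1586 and 1404 counts in WT and 2041 and 1767 in KO (0.33, SE 0.13, adjusted p = 0.115), and Rbm47 had 43 to 111 counts per library.

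**Figure D4:**
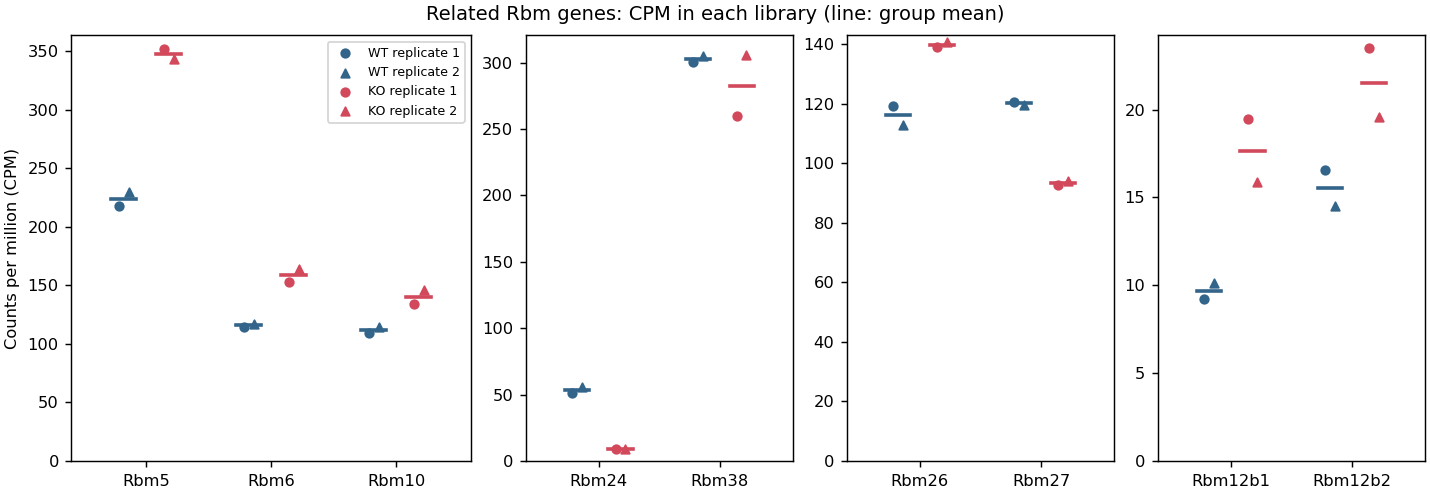
CPM in each library for 4 sets of related Rbm genes, with a line at each group mean and a separate axis from 0 in each panel. Rbm5, Rbm6 and Rbm10 are all higher in KO, Rbm24 is lower while Rbm38 overlaps, and Rbm26 and Rbm27 lie at 116 and 120.1 CPM in WT and at 139.8 and 93.4 CPM in KO.

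The exon junction, m6A, nuclear decay and paraspeckle group held 9 members, all tested, of which 1 rose, 2 fell and 6 were not called. Rbm26 and Rbm27 are related zinc finger proteins that help to send nuclear polyadenylated RNA to the exosome. Rbm26 had 4280 and 4118 counts in WT and 5146 and 5116 in KO (log2 fold change 0.27, SE 0.08, edgeR adjusted p = 0.0448). Rbm27 had 4322 and 4371 counts in WT and 3430 and 3425 in KO (-0.36, SE 0.08, edgeR adjusted p = 0.0117). These relatives thus changed in opposite directions, and their RPKM ratio, Rbm26 over Rbm27, went from 0.833 and 0.792 in WT to 1.26 and 1.26 in KO. The Rbm26 call is the least secure of the 12: it was lost without WT replicate 1 (edgeR adjusted p = 0.0837), WT replicate 2 (0.238) or KO replicate 2 (0.0712). The Rbm27 call was lost without WT replicate 1 (0.0550).

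Rbm7, the RNA-binding subunit of the nuclear exosome targeting complex, had 4188 and 4256 counts in WT and 3183 and 2907 in KO. The KO mean was 82.9 ± 4.29 CPM against 117 ± 0.159 CPM in WT, so Rbm7 fell (-0.49 on the log2 scale, SE 0.09, edgeR adjusted p = 0.00252), and no annotated gene overlaps it. Rbm8a (Y14), the core exon junction protein that works downstream of splicing, had 2748 and 3133 counts in WT and 3006 and 3099 in KO (0.04, SE 0.10, edgeR adjusted p = 0.880). Its near-copy Rbm8a2 had 0 to 20 counts per library. Rbm15 and Rbm15b, which recruit the m6A writer to RNA, had log2 fold changes of 0.08 (SE 0.12) and -0.18 (SE 0.08, edgeR adjusted p = 0.152). For Rbm15b the KO libraries, at 7644 and 7417 counts, lay below the WT libraries, at 7930 and 8936. Rbm33 (-0.16, SE 0.07, edgeR adjusted p = 0.174) and the paraspeckle protein gene Rbm14 (0.26, SE 0.12, 0.203) did not pass either. Rbm14 was called without KO replicate 2 (log2 fold change 0.39, edgeR adjusted p = 0.0489) and had 0.12 (0.711) without KO replicate 1, and it shares 18.6% of its exon bases with Gm21992.

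All 3 members that act in ribosome biogenesis were tested, and 1 rose and 1 fell. Rbm28, a nucleolar protein needed for large ribosomal subunits, had 3752 and 3452 counts in WT and 6177 and 5543 in KO. Its mean rose from 99.6 ± 7.13 CPM in WT to 159.6 ± 10.2 CPM in KO (a log2 fold change of 0.68, SE 0.09, edgeR adjusted p = 0.000361). Rbm34, another nucleolar protein, had 2520 and 2522 counts in WT and 1914 and 1751 in KO, and fell by 0.48 on the log2 scale (SE 0.10, edgeR adjusted p = 0.00792). The RPKM ratio of Rbm28 to Rbm34 went from 1.31 and 1.20 in WT to 2.83 and 2.78 in KO. Rbm19, which acts in processing of ribosomal RNA, had 1276 and 1259 counts in WT and 1327 and 1342 in KO (0.06, SE 0.13, edgeR adjusted p = 0.864).

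The remaining 7 members are less studied, and of 6 tested, 1 rose and 5 were not called. Rbm12b1 had 331 and 370 counts in WT and 721 and 577 in KO, a rise from 9.68 ± 0.639 to 17.7 ± 2.55 CPM (log2 fold change 0.87, SE 0.22, edgeR adjusted p = 0.0183). That call was lost without KO replicate 1 (edgeR adjusted p = 0.109). Its neighbour and near-copy Rbm12b2, 44020 bases away on chromosome 4, had 595 and 531 counts in WT and 871 and 712 in KO (0.47, SE 0.19, edgeR adjusted p = 0.130). Reads that match both copies could be left uncounted or assigned to the wrong copy, so the values of the pair are uncertain. Rbm43 had 773 and 814 counts in WT and 601 and 576 in KO (-0.45, SE 0.18, edgeR adjusted p = 0.120), without overlap. Rbm44, a gene known from germ cells, had 13 and 47 counts in WT and 150 and 83 in KO (1.94, SE 0.67, edgeR adjusted p = 0.0746), and its fold change rested on single libraries: it was 3.12 without WT replicate 2 (0.00440) and 1.30 without WT replicate 1 (0.220). Rbm44 was also called without KO replicate 2 (0.0172), with a minimum mean of 1 CPM (0.0434) and with no filter on low counts (0.0246). Rbm12 and Rbm18 had log2 fold changes of -0.18 (SE 0.14) and -0.01 (SE 0.11). Rbm12 shares 32.6% of its exon bases with Gm28036 on the same strand, which had 0 counts in every library. The Rbm12 value is therefore uncertain, as for Rbm42.

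Of 28 listed genes whose products work with Rbm proteins, 27 were matched by symbol to the table and all of these were tested. Of the 27, 3 rose, 4 fell and 20 were not called, so 25.9% were called. Beside that, 14.5% of all tested genes were called, and 25.3% of those with a mean of at least 10 CPM. Zc3h13, a subunit of the m6A writer that Rbm15 recruits, had 8625 and 9646 counts in WT and 5206 and 5189 in KO, and fell by 0.83 on the log2 scale (SE 0.08, edgeR adjusted p = 3.71e-05). The writer's core subunits Mettl3 and Mettl14 (0.18, SE 0.15, and 0.05, SE 0.13) were not called. In nuclear decay, Skiv2l2, the Mtr4 helicase that Rbm7 works with, fell (-0.53, SE 0.12, edgeR adjusted p = 0.00917). Zfc3h1, the zinc finger partner in the exosome pathway of polyadenylated RNA, rose (0.58, SE 0.08, edgeR adjusted p = 0.000754), while Zcchc8 was not called (0.14, SE 0.08). None of Magoh, Magohb, Eif4a3 and Casc3, which join Rbm8a in the exon junction complex, was called, with log2 fold changes from -0.39 to 0.03. Of the others, Luc7l3 (0.38) and Nono (0.28) rose and Sfpq (-0.34) and Armc7 (-0.36) fell. The calls of Luc7l3 and Nono were lost without WT replicate 2 (edgeR adjusted p = 0.0769 and 0.0820), and that of Armc7 without WT replicate 1 (0.0578) or KO replicate 1 (0.126). Of 10 related genes outside the name rule, among them Rbmx, Rbms1 and Rbms2, 9 were tested and Cirbp was the only call (11.1%).

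The annotation gave a further feature that the choice of members did not use. Of the 35 tested members, 11 (31.4%) have at least 1 annotated transcript of the nonsense-mediated decay class in GENCODE, beside 28.4% of 12640 tested protein-coding genes, and 24 (68.6%) have an annotated retained intron transcript, beside 58.0%. Of the 12 called members, 5 have a decay transcript (Rbm5, Rbm6, Rbm7, Rbm25 and Rbm39) and 9 have a retained intron transcript (41.7% and 75.0%), beside 28.1% and 60.9% of all called protein-coding genes. Of the 23 members not called, 6 have a decay transcript and 15 a retained intron transcript. Rbm39 has 8 decay and 7 retained intron transcripts of 25, and Rbm5 has 4 and 13 of 24. Gene counts add all such forms together, so a change in count does not say which form changed.

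**Figure D5:**
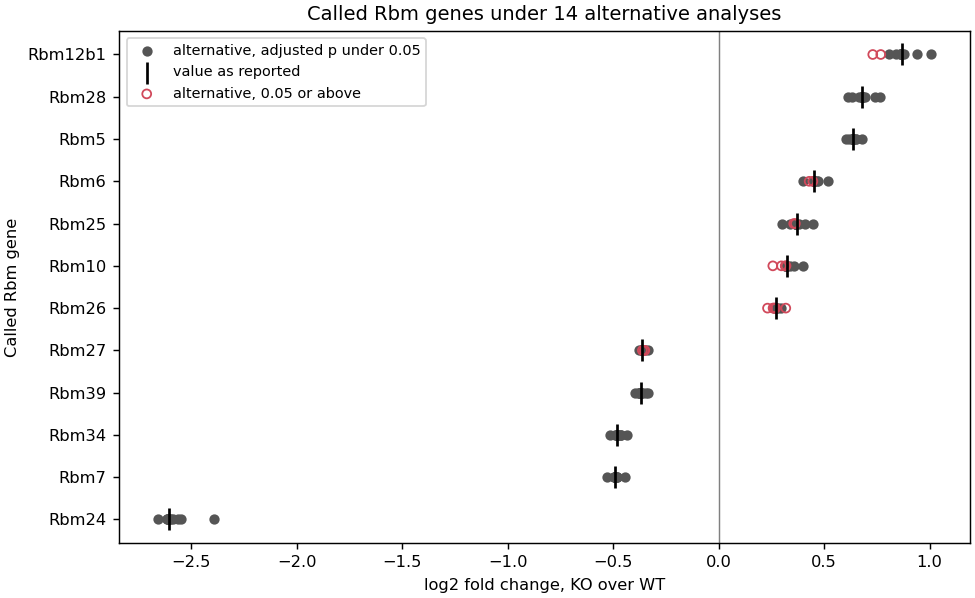
Log2 fold change of each called Rbm gene as reported (black bar) and under 14 alternative analyses (points), where open circles are alternatives in which the adjusted p was 0.05 or above. No gene crosses 0, and 6 genes (Rbm5, Rbm7, Rbm24, Rbm28, Rbm34 and Rbm39) have filled points only.

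All 12 called members kept their direction under the 14 alternatives, and 6 of them, named in the plot of alternatives, were called in each. The other calls, Rbm6, Rbm10, Rbm12b1, Rbm25, Rbm26 and Rbm27, were lost with limma on log2 of the deposited RPKM plus 0.5, at adjusted p values of 0.0569, 0.0634, 0.0509, 0.0728, 0.103 and 0.0521.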

How the data were processed

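The data were 4 RNA sequencing libraries of sorted double-positive thymocytes, grouped by the title label. The authors deposited whole-number counts per gene, and per the submitters' processing notes the tools were FastQC 0.11.5, cutadapt 1.17, STAR 2.6.0a, HTSeq 0.6.1 and DESeq2 1.24.0 with build GRCm38. The sources used here do not state the annotation release, the strand setting or the treatment of overlapping genes. The authors also deposited RPKM values, which equal the count divided by the deposited gene length in bases and by the library total (relative tolerance 1e-06). No row named no gene, and the 39 Rbm symbols are those of that table.

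Counts were tested with edgeR 4.0.16 in R 4.3.3 (TMM factors, 0.993 to 1.01, filterByExpr, robust quasi-likelihood test, genotype only), two-sided and adjusted over all genes tested, with a threshold of 0.05. CPM here are counts over library totals, given as mean ± SD, with n = 2. Standard errors come from the fold change and the F statistic. The alternatives were other scaling factors and filters, DESeq2 1.42.0, limma-voom, limma 3.58.1 on log2 RPKM with pseudocounts of 0.5 and 0.1, a replicate block, and leaving out each library. Fits were tested on simulated data. Replicate pairs differed by more than counting error alone (chi-square per degree of freedom 16.7 and 19.0). That check cannot tell separate animals from separate preparations of the same RNA. Coordinates and exon overlaps come from GENCODE M21 (GRCm38), matched by gene identifier for all 39 members. Promoters come from RefSeq (GRCm38.p6).

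Values in every library are given for called members, the 5 highest by RPKM and close relatives of called members. Other members were named after their values were seen. The members and lists were chosen with earlier results of these data known. Some marker genes are not reported here.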

Additional observations from a re-analysis of the deposited data

How the results depend on the processing

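Counts of called Rbm genes stayed within a factor of 1.5 of 7 higher and 5 lower in 12 of the 14 alternatives. The exceptions were limma on log2 RPKM plus 0.5 and plus 0.1 over genes with a mean of at least 1 RPKM. There 2 and 3 Rbm genes were called higher, 538 and 540 of all genes higher and 662 and 661 lower, against 1100 higher and 1308 lower by edgeR. These fits use no count model, and why they made fewer calls was not tested. Leaving out each library gave 5 to 7 Rbm genes higher and 4 to 5 lower. Rbm38, not called, changed direction, with log2 fold changes from -0.22 without KO replicate 2 to 0.033 without KO replicate 1. The direction of Rbm8a, Rbm18, Rbm47 and Rbm48 under the alternatives is not given here. With upper-quartile scaling the median log2 fold change of all genes was 0.01. Whether equal replicate numbers share a litter or day is not stated. Replicate differences in WT and KO had a correlation of -0.04 across genes, which cannot settle it, since a weak shared effect could also give a value near 0. With the replicate block 7 Rbm genes were higher and 5 lower, Rbm26 lost its call (log2 fold change 0.27, adjusted p just above 0.05) and Rbm44 was called (2.09, adjusted p = 0.0204). At 2 libraries per group small changes can be missed, and values of Rbm8a2, Rbm20, Rbm11 and Rbm42 rest on under 100 counts per library.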
